A study of Mus musculus with 4 samples.

Results

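Sphkap and 8 Akap genes encode A-kinase anchoring proteins, and their transcripts were followed in mouse cardiac progenitor cells (CPCs) with and without Isl1, a LIM-homeodomain transcription factor of second heart field progenitors. The 9 genes, Sphkap, Akap1, Akap5, Akap6, Akap7, Akap9, Akap11, Akap12 and Akap13, were taken by symbol from a table of 20701 gene symbols, with the transcript entry of the highest summed count kept for each. Sphkap was chosen because its decrease in the Isl1 knockout was among the largest in the table, so the differences between control and Isl1_KO are given for these genes as a description. Calls from the fit over all genes are counted once, beside their share among all genes, and support nothing. The RNA came from E14 Tg(Nkx2-5-EmGFP) embryonic stem cells, which in all groups report activity of the cardiac transcription factor gene Nkx2-5 by green fluorescence. The cells were differentiated to CPCs and sorted as GFP-positive on day 5, and poly(A) RNA was sequenced in 4 libraries. By the labels, the 2 control libraries came from different clones of the reporter line and the 2 Isl1_KO libraries from different Isl1-/- clones, which were picked as single clones after CRISPR/Cas9 cutting with a pair of guide RNAs. A knockdown is named in the series' design text but a knockout in the titles and genotypes, which were followed.

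Protein kinase A (PKA) is a complex of regulatory and catalytic subunits that comes apart when cyclic AMP (cAMP) binds the regulatory subunits. Anchoring proteins hold the regulatory subunits through a short amphipathic helix and place the kinase beside its substrates, together with phosphatases and with phosphodiesterases that break cAMP down. In heart muscle such complexes sit at calcium channels, at the sarcoplasmic reticulum, at mitochondria and at the nuclear envelope. The Sphkap protein binds type I regulatory subunits and was named for its binding of sphingosine kinase 1.

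Totals were 8821517 and 9147425 counts in control and 13186109 and 11388333 in Isl1_KO, with 1 entry per symbol. Isl1 had counts of 309 and 326 in control against 17 and 24 in Isl1_KO (log2 fold change -4.39, SE 0.21). The control libraries lay closer to each other, with a common biological coefficient of variation of 1.29%, than the Isl1_KO libraries, with 16.3%. The control pair still differed by slightly more than sampling noise over genes (chi-square divided by its degrees of freedom 1.13, against 18.6 in Isl1_KO) and was counted as 2 samples. Whether this pair spans the variation between clones was not tested, so the control SDs and the p-values measure only the spread between these libraries, which may be technical. Of the 7 cardiac progenitor markers all had counts, and their summed level was 707 and 719 counts-per-million (CPM) in control and 307 and 282 CPM in Isl1_KO. Nkx2-5, the gene behind the sorting reporter, had counts of 186 and 181 in control against 62 and 50 in Isl1_KO. Endothelial markers summed to between 326 and 367 CPM and blood markers to between 258 and 413 CPM over the 4 libraries. The endothelial sum was mostly Kdr, with 217 and 214 CPM in control against 186 and 278 CPM in Isl1_KO. Tek had 56.2 and 57.9 CPM in control against 33.9 and 16.1 CPM in Isl1_KO. Cdh5 and Emcn were also lower in both Isl1_KO libraries, Pecam1 was higher in both, and edgeR called 0 of the endothelial markers. The blood markers went in different directions, with Hbb-bh1 at 284 and 293 CPM in control against 160 and 42.0 CPM in Isl1_KO, and Runx1 at 70.4 and 71.9 against 102 and 110 CPM (edgeR adjusted p = 0.0335). Tal1 and Gata1 had log2 fold changes of 0.93 (SE 0.22) and 0.85 (SE 0.16) and did not pass the test. Endoderm markers summed to 55.4 and 54.9 CPM in control against 53.3 and 28.2 CPM in Isl1_KO. Pluripotency markers summed to 29.2 and 30.4 CPM in control against 24.1 and 47.4 CPM in Isl1_KO. Neural markers summed to 35.5 and 34.1 CPM in control against 27.1 and 14.5 CPM in Isl1_KO.

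Promoter sequences from RefSeq (table of GRCm38.p6) were matched by symbol for 8 of the 9 genes, and each printed sequence was found once on NCBIM37, the build used for all positions here. A promoter is the 250 bases before and the 50 bases from the start site on. The 4 below show the contrast in CpG content among the 3 genes with the largest decreases and Akap11, whose difference was small, and capitals mark CpG dinucleotides. They lie at chr1:83404726-83405025 on the minus strand (Sphkap), chr12:53800120-53800419 on the plus strand (Akap6), chr12:77425628-77425927 on the plus strand (Akap5) and chr14:78936618-78936917 on the minus strand (Akap11).
Sphkap: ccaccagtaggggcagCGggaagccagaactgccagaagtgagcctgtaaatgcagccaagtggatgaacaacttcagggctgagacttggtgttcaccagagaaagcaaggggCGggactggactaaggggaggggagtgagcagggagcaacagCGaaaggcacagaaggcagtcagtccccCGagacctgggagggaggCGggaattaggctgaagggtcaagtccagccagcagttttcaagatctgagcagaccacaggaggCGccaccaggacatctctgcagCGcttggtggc
Akap6: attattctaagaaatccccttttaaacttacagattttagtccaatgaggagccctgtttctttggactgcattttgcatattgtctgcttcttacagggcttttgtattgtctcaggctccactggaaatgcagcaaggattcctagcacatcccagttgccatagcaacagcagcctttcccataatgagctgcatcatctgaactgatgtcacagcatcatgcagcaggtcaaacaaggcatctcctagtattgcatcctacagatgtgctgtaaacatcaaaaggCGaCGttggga
Akap5: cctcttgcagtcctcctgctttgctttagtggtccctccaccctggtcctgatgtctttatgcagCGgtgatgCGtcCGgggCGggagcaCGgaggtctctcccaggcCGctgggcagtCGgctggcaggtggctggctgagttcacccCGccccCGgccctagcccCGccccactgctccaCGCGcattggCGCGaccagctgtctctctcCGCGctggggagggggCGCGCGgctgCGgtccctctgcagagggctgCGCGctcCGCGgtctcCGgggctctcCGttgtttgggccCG
Akap11: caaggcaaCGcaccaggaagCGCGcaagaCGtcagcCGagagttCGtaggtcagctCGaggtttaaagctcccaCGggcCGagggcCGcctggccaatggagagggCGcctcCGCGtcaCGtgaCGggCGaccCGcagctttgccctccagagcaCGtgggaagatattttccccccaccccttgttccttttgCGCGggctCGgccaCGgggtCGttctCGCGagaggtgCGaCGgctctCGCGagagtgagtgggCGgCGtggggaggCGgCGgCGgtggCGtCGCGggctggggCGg

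The Sphkap promoter held 7 CpG dinucleotides at 59% GC, and 51.4% of the 32851 mouse promoters in the table held no more CpG than that. The Akap6 promoter held 2 CpG at 43.7% GC. The Akap5 and Akap11 promoters printed here were CpG-rich, with 27 and 38 CpG. A second Akap11 promoter in the table, at chr14:78922460-78922759, held 0 CpG at 35.7% GC, so the CpG content of Akap11 depends on the start site. Motifs were searched on both strands. For the CArG core bound by SRF only the outer CC and GG were searched, with any bases between them. The Sphkap window had 3 matches to this loose form, at -247, -61 and 7, and 73.3% of all promoters held one. Each of the 3 has G or C between the CC and the GG in the printed sequence. None is therefore a full CArG core, which has only A or T there. The Sphkap window also had 2 matches to AAGTG, the core bound by Nkx2-5, at -214 and -192 from the start site, and 46.4% of all promoters held at least 1. A CANNTG E-box at -193 overlapped the second of these, and 72.3% of all promoters held an E-box. The letters TAATNG of a homeodomain core, AGATAA of GATA factors, the CREB element TGACGTCA with its shorter form TGACG, and TATAAA were not in the Sphkap window, and 20.6%, 11.2%, 1.79%, 20.8% and 13.6% of all promoters held them. The Akap11 window had 3 matches to TGACG, at -221, -136 and -129, the last 2 of which overlap a CANNTG E-box at -133, and no other window of the 12 found for these genes had a TGACG match. A match of letters is a description and not a binding site.

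Sphkap, an anchoring protein of type I PKA, was 193-fold lower in Isl1_KO by the fitted values. Its gene lies at chr1:83250714-83404775 on the minus strand, and the transcript is 6499 bases long. The controls gave 580 and 593 counts and the knockouts 4 and 4, or 65.8 and 64.9 CPM against 0.307 and 0.347 CPM. Both Isl1_KO libraries were far below both control libraries. By counting error alone, a count of 4 has an exact Poisson interval (95%) of 1.09 to 10.2 counts, and the control counts of 580 and 593 have intervals of 534 to 629 and 546 to 643. The mean level was 65.4 ± 0.673 CPM in control against 0.327 ± 0.0280 CPM in Isl1_KO (SD, n = 2 libraries each), and the fitted log2 fold change was -7.60 (SE 0.17), the sixth lowest of the 12715 genes tested. Over the summed counts the control level was 200.4 times the Isl1_KO level, with a 95% counting interval of 101 to 465. The SE of 0.17 is smaller than this counting error allows, and DESeq2 gave a log2 fold change of -7.64 (SE 0.55). In bulk libraries, fewer cells with the transcript and less transcript per cell cannot be told apart.

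**Figure D1:**
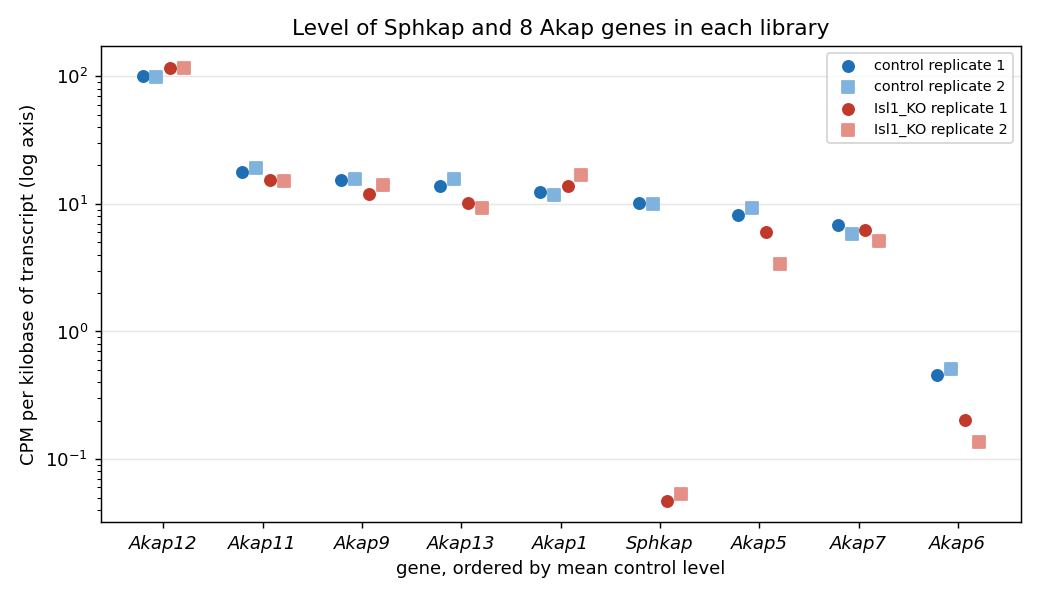
Level of each of the 9 genes in each library, in CPM per kilobase of transcript on a log axis, with control and Isl1_KO libraries as separate points. The Sphkap points go from 10.1 and 9.98 CPM per kilobase in control to 0.0473 and 0.0534 in Isl1_KO, and Akap12 is highest in all 4 libraries.

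Levels of different genes were compared per kilobase of transcript. In control, Akap12 was highest with 99.7 and 99.2 CPM per kilobase, followed by Akap11 with 17.7 and 19.0. Akap9 (15.3 and 15.7) and Akap13 (13.8 and 15.7) overlapped and could not be ordered. Akap1 came next with 12.4 and 11.7, and Sphkap was sixth with 10.1 and 9.98. Akap5 (8.24 and 9.30), Akap7 (6.82 and 5.83) and Akap6 (0.454 and 0.513) made up the low end, each below the one before in both libraries.

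In Isl1_KO Sphkap was last in the order of levels and lay below Akap6 (0.203 and 0.135 CPM per kilobase) in both libraries. Akap1 (13.7 and 16.8) overlapped with both Akap11 (15.3 and 15.1) and Akap9 (12.0 and 14.2), while Akap11 lay above Akap9 in both libraries. Akap7 and Akap5 overlapped. Sphkap made up 5.49% and 5.34% of the summed level per kilobase of the 9 genes in control and 0.0263% and 0.0295% in Isl1_KO. The summed level was 184.6 and 186.9 CPM per kilobase in control and 180.0 and 180.9 in Isl1_KO. Without Sphkap it was 174.4 and 176.9 in control and 179.9 and 180.9 in Isl1_KO, and Akap12 made up 54.0% and 53.1% of the sum of all 9 in control and 64.6% in both Isl1_KO libraries.

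Akap6 encodes a large scaffold of the nuclear envelope in muscle cells, which binds ryanodine receptor and phosphodiesterase. The gene lies at chr12:53800370-54252002 on the plus strand. It had counts of 41 and 48 in control against 27 and 16 in Isl1_KO, from totals that were higher in Isl1_KO. This was 4.65 and 5.25 CPM against 2.08 and 1.39 CPM, and the groups did not overlap. The log2 fold change was -1.50 (SE 0.29), the largest decrease after Sphkap among the 9, at the lowest control counts of the 9.

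Akap5 encodes a membrane scaffold that also binds calcineurin and protein kinase C and holds them near channels and receptors. Its gene lies at chr12:77425878-77435140 on the plus strand, and an exon overlaps an annotated miRNA on the other strand, whose reads cannot be separated because both strands were counted. The 4 libraries had counts of 485 and 568 in control against 528 and 258 in Isl1_KO, or 55.1 and 62.2 CPM against 40.6 and 22.4 CPM. Both Isl1_KO libraries lay below both controls, and Isl1_KO replicate 2 was the lowest of the 4 by a wide margin. The log2 fold change was -0.89 (SE 0.28), and it was -0.53 without Isl1_KO replicate 2 and -1.39 without Isl1_KO replicate 1. The same library, Isl1_KO replicate 2, was low for all 4 smooth muscle markers, whose sum was 2435, 2438 and 2082 CPM in the other 3 libraries and 679 CPM in it. The 4 fibroblast markers, listed for feeder cells, summed to 1158 and 1141 CPM in control and to 677 and 353 CPM in Isl1_KO. Most of this sum was Col1a1, with 925 and 910 CPM in control against 603 and 328 CPM in Isl1_KO. Col1a2 and Dcn were also lower in both Isl1_KO libraries. Thy1 overlapped, with 2.72 and 3.06 CPM in control against 2.31 and 3.82 CPM in Isl1_KO. The part of the smooth muscle and fibroblast markers in the Akap5 values was not tested.

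Akap13 encodes a scaffold that is also a guanine nucleotide exchange factor for RhoA, and it lies at chr7:82600420-82899495 on the plus strand. It had 172 and 197 CPM in control against 127 and 117 CPM in Isl1_KO, with no overlap. The means were 184 ± 17.2 and 122 ± 7.33 CPM (SD, n = 2 each), and the log2 fold change was -0.60 (SE 0.093). Rhoa, the gene of RhoA, had a log2 fold change of 0.014 (SE 0.090).

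Akap9 and Akap11 showed smaller differences in the same direction. Akap9 (chr5:3928054-4080209, plus strand) encodes a scaffold of the centrosome and Golgi, with a short form, yotiao, at a cardiac potassium channel. It had 184 and 189 CPM in control against 145 and 171 CPM in Isl1_KO (log2 fold change -0.24, SE 0.097), and the value was -0.13 without Isl1_KO replicate 1 and -0.37 without Isl1_KO replicate 2. Akap11 (chr14:78892053-78936667, minus strand) encodes a scaffold that also binds glycogen synthase kinase 3 and protein phosphatase 1. It had 167 and 179 CPM in control against 144 and 142 CPM in Isl1_KO (log2 fold change -0.28, SE 0.068), and in neither gene did the groups overlap.

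Akap1 and Akap12 had higher levels in both Isl1_KO libraries. Akap1 (chr11:88692106-88725900, minus strand), which brings PKA to the outer mitochondrial membrane, had 45.9 and 43.2 CPM in control against 50.9 and 62.1 CPM in Isl1_KO (log2 fold change 0.34, SE 0.12), and the value was 0.48 without Isl1_KO replicate 1 and 0.19 without Isl1_KO replicate 2. Akap12 (chr10:5987073-6080212, minus strand), or gravin, a scaffold for PKA and protein kinase C at the cell cortex, had 622 and 619 CPM in control against 725 and 730 CPM in Isl1_KO. Its means were 621 ± 2.49 and 728 ± 3.12 CPM (SD, n = 2 each) and its log2 fold change was 0.23 (SE 0.063).

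Akap7 (chr10:24888896-25018969, minus strand) was the one gene whose groups overlapped. It encodes small anchoring proteins that tie PKA to the L-type calcium channel and to phospholamban. The counts were 187 and 166 in control and 253 and 182 in Isl1_KO, or 21.2 and 18.2 CPM against 19.4 and 15.8 CPM (log2 fold change -0.16, SE 0.16), and the value ran from -0.32 to -0.015 with 1 library left out. A shorter transcript of Akap7, of 2329 bases, held 56.7% and 56.6% of the counts of the 3113-base entry in control and 61.3% and 54.4% in Isl1_KO, so the pairs overlapped for it as well. The entries of Akap1 and of Akap11 shared nearly all of their reads.

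Of the 9 genes, all passed the filter on low counts, Sphkap only through the control libraries, and 7 had a log2 fold change below 0. The median was -0.28, and that of all 12715 genes tested was -0.0027. In 6 genes both Isl1_KO libraries were below both controls and in 2 genes both were above. Over all tested genes, 29% were lower and 29.1% higher in this way, 58.1% together. With the quasi-likelihood test of edgeR and a Benjamini-Hochberg adjusted p under 0.05, 2 of the 9 were called, Sphkap and Akap13, both lower, where 2.45% of all tested genes were called, 1.94% lower and 0.503% higher. The genes were chosen on this contrast, so nothing is read from these counts. Without either control library Sphkap alone was called, and Akap13 was not called when the trend with transcript length was removed.

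**Figure D2:**
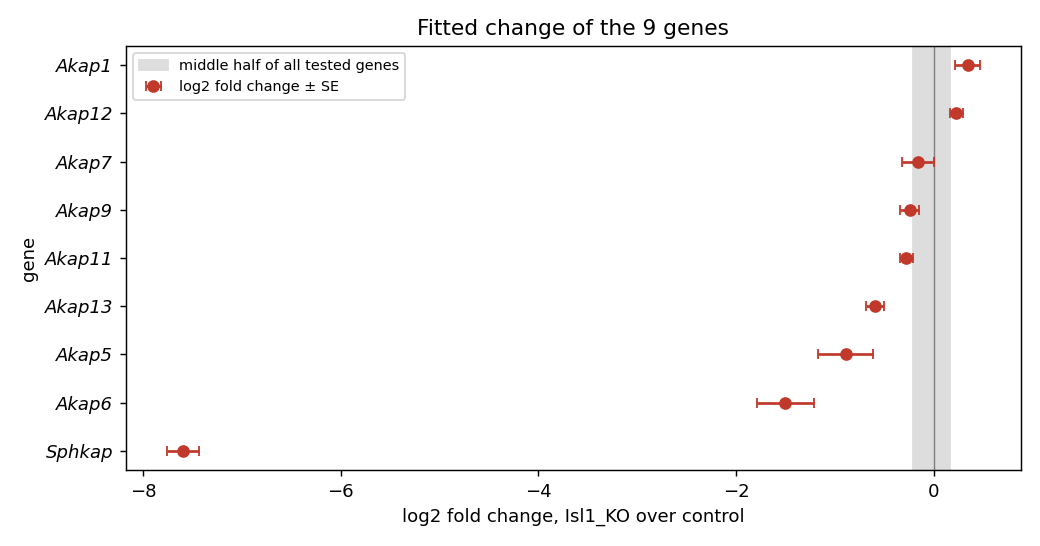
Log2 fold change of Isl1_KO over control for each of the 9 genes, with its standard error as bars and the interquartile range of all tested genes as a grey band. Sphkap lies at -7.60, Akap6 at -1.50 and Akap5 at -0.89, and the other 6 lie between -0.60 and 0.34. The bar of Sphkap is smaller than its counting error.

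The log2 fold change had a weak trend with transcript length. The median log2 fold change was 0.076 over 721 genes with transcripts under 1000 bases and -0.10 over 593 genes with transcripts over 8000 bases. Akap6, Akap9, Akap11 and Akap13 are in the longest class, with 10247, 12055, 9402 and 12504 bases. With an offset that removed the trend, the log2 fold change of Akap9 went from -0.24 to -0.13, that of Akap11 from -0.28 to -0.18 and that of Akap13 from -0.60 to -0.48. Those of Sphkap (-7.53), Akap6 (-1.40) and Akap5 (-0.82) moved little in proportion.

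**Figure D3:**
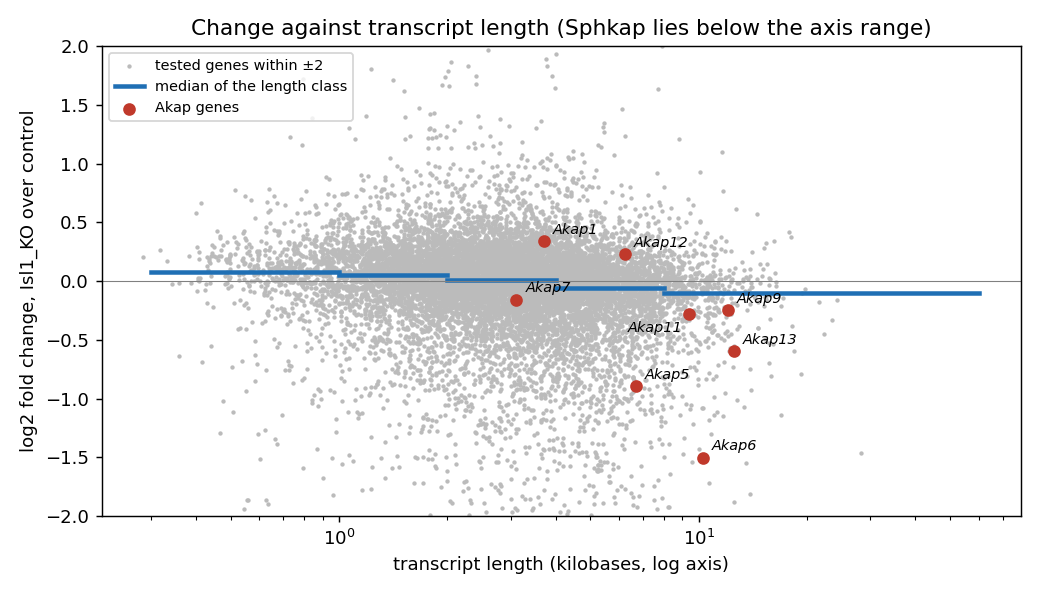
Log2 fold change of Isl1_KO over control against transcript length in kilobases (log axis), for tested genes within 2 of 0, with the 8 Akap genes named and the median of each length class as a line. Sphkap lies below the axis range. The medians of the length classes go from 0.076 at the short end to -0.10 at the long end, and single genes spread far more widely than that.

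The genes of the PKA subunits, the proteins that these scaffolds hold, had log2 fold changes between -0.77 and 0.49. Of the 6 genes, edgeR called 0 (adjusted p 0.102 to 0.977), 2 had an unadjusted p under 0.05, and DESeq2 called 0. Prkar1a, the main type I regulatory subunit in most cells, had 398 ± 4.44 CPM in control against 338 ± 40.2 CPM in Isl1_KO (SD, n = 2 each, log2 fold change -0.24, SE 0.097, edgeR adjusted p = 0.227). Prkar1b, the other type I subunit, had counts of 50 and 51 in control against 49 and 32 in Isl1_KO (log2 fold change -0.77, SE 0.24, edgeR adjusted p = 0.156). Prkar2b, a type II regulatory subunit, had the highest log2 fold change of the 6, with 90.0 ± 0.578 and 126 ± 19.6 CPM in control and Isl1_KO (log2 fold change 0.49, SE 0.12, edgeR adjusted p = 0.102). Prkar2a (0.011, SE 0.16) and the catalytic subunits Prkaca (-0.047, SE 0.073) and Prkacb (-0.20, SE 0.086) lay closer to 0 on the log2 scale. Sphk1, whose protein gave Sphkap its name, had only 2 and 2 counts in control and 7 and 8 in Isl1_KO and was not tested, and Sphk2 had a log2 fold change of 0.17 (SE 0.11, adjusted p = 0.390).

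Around the anchoring proteins, 98 other genes of the cAMP and PKA pathway were listed, with results of these data already known. Of these 88 were tested, and 9 passed the adjusted threshold, all lower in Isl1_KO, against 2.45% of all tested genes called in either direction. The median log2 fold change of the 88 was -0.17. No gene of the lists was called higher by edgeR, 5 were higher at an unadjusted p under 0.05, and DESeq2 called 1 higher, the phosphodiesterase gene Pde10a. Without either control library Mybpc3 was the only one of the 9 still called. Mybpc3, Pln and Cmya5 passed the filter on low counts only through the control libraries, so that they had to differ, and a filter of 10 counts in all 4 libraries left these 3 untested and 5 of the 9 called.

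Of the 16 tested partners and substrates of anchored PKA, edgeR called 4 lower. Mybpc3 and Pln among them passed the filter on low counts only through the control libraries, so that they had to differ. An unadjusted p under 0.05 was found for 6 of the 16, all lower, and DESeq2 called 5 lower. Mybpc3, cardiac myosin-binding protein C and a PKA substrate of the sarcomere, had counts of 547 and 550 in control against 8 and 3 in Isl1_KO (edgeR adjusted p = 0.000776). Ryr2, the ryanodine receptor that Akap6 binds, had 97.3 ± 5.35 CPM in control against 15.9 ± 6.02 CPM in Isl1_KO (log2 fold change -2.61, SE 0.25, edgeR adjusted p = 0.0150). Cacna1c, the pore of the L-type calcium channel to which Akap5 and Akap7 tie PKA, had 26.5 ± 4.04 and 5.44 ± 0.523 CPM (log2 fold change -2.28, SE 0.18, edgeR adjusted p = 0.00902). Pln, phospholamban, had counts of 18 and 22 in control against 3 and 4 in Isl1_KO, a ratio of control to Isl1_KO of 7.81 with a 95% counting interval of 3.46 to 20.7 (edgeR adjusted p = 0.0397). All 4 are genes of the contractile and calcium machinery of heart muscle. Atp2a2 (log2 fold change -0.38, edgeR adjusted p = 0.0601) and Tnni3 (-0.60, adjusted p = 0.451), of the same machinery, were not called.

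Among 17 other tested anchoring proteins 1 fell, Cmya5 or myospryn, a muscle anchoring protein, with 23 and 21 counts in control and 1 and 1 in Isl1_KO. The ratio of control to Isl1_KO was 30.1 with a 95% counting interval of 7.85 to 256 (edgeR adjusted p = 0.0184). Of 15 tested cyclases, receptors and G proteins 1 fell, Adcy6, a main adenylyl cyclase of the heart, by 0.63 on the log2 scale (SE 0.076, edgeR adjusted p = 0.0293). Of 13 tested phosphodiesterases edgeR called 1 lower, Pde3a, by 0.94 (SE 0.14, edgeR adjusted p = 0.0474). Pde3a was not called with the length trend removed (adjusted p = 0.0521) or with at least 10 counts in every library (adjusted p = 0.0557). Of the 13, 4 were lower and 1 higher at an unadjusted p under 0.05. Of the 11 CREB factors and cAMP-responsive genes edgeR called 2 lower. These were Nr4a1, an immediate early nuclear receptor, by 1.19 (SE 0.11, adjusted p = 0.0128) and Per1, a clock gene, by 0.70 (SE 0.097, adjusted p = 0.0371). Unadjusted p was under 0.05 for 6 lower and 1 higher of the 11, and DESeq2 called 3 lower. Creb1, the factor itself, was at 0.018 (SE 0.069). Of the 2 tested PKA inhibitor genes and the 8 tested sphingosine kinase and S1P genes edgeR called 0, although 2 in each list had an unadjusted p under 0.05. DESeq2 called 0 of the inhibitors and 1 of the sphingosine list.

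**Figure D4:**
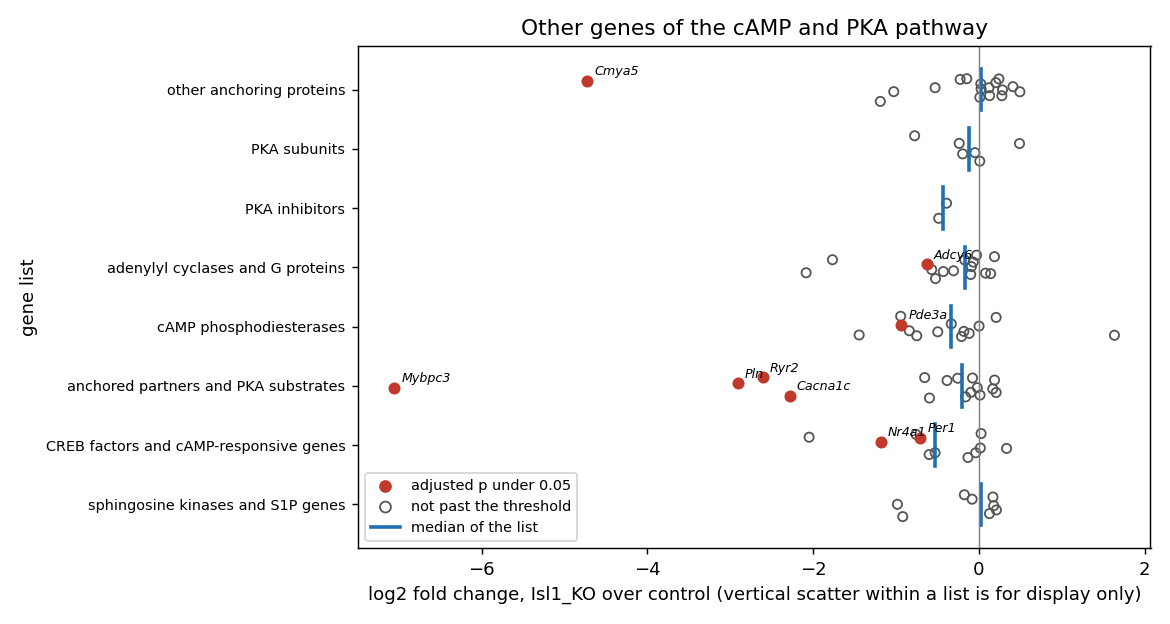
Log2 fold change of Isl1_KO over control for the tested genes of each pathway list, 1 point per gene, with the genes past the adjusted threshold filled and named and the median of each list as a line. All 9 marked genes lie below 0, Mybpc3 at -7.06 being the lowest.

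The genes with the pattern most like that of Sphkap were sought by Euclidean distance of log2 CPM over the 4 libraries, with a prior count of 2. The nearest was Mybpc3 at 0.79, followed by Sorbs2, an actin-associated adaptor of muscle (2.04), Alpk2, an alpha-kinase (2.21), Smyd1, a muscle histone methyltransferase (2.35), and Sfrp5, a secreted Wnt inhibitor (2.36). Sorbs2 had counts of 229 and 231 in control against 8 and 4 in Isl1_KO, and Smyd1 had 730 and 786 against 24 and 9. With 2 libraries in each group this likeness rests mostly on the contrast itself.

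The cardiomyocyte markers moved with Sphkap. Of the 8, 7 were tested and all 7 fell by the edgeR test, Nppa being too low for a test at 3 to 6 counts. Of all tested genes 1.94% were called lower. The summed level of the 8 was 1509 and 1595 CPM in control against 35.8 and 33.6 CPM in Isl1_KO. Per 1000 CPM of these markers Sphkap had 43.6 and 40.7 CPM in control against 8.58 and 10.3 CPM in Isl1_KO, there from 4 counts each. The markers differed among themselves, with log2 fold changes of the 7 from -7.01 (Ttn) to -2.74 (Actn2), against -7.60 for Sphkap. The part of the cardiomyocyte markers' decrease in that of Sphkap was not tested.

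The genes beside Sphkap on the chromosome were looked at after the data were seen. Of the 10 tested genes on each side edgeR called 0, 3 had an unadjusted p under 0.05 and DESeq2 called 1. Their log2 fold changes ran from -0.92 to 0.54, with a median of -0.062. The nearest, Slc19a3 and Pid1, were at 0.32 (SE 0.31) and 0.33 (SE 0.21). Of the 20 neighbours of Akap5, 14 lay above 0, with a median of 0.30, and edgeR called 3 higher, Mthfd1, Zbtb1 and Max, where 0.503% of all tested genes were called higher. Of the 20 neighbours of Akap6 14 also lay above 0, with 0 called by edgeR (2 at an unadjusted p under 0.05) and 0 by DESeq2, and of those of Akap13 edgeR called 2 higher. The nearest of these was Mthfd1, a folate enzyme, at 134.8 ± 3.12 CPM in control against 264 ± 56.0 CPM in Isl1_KO (log2 fold change 0.97, SE 0.15, edgeR adjusted p = 0.0489). Akap1, Akap7, Akap9, Akap11 and Akap12 each had 1 neighbour called lower by edgeR and 0 called higher.

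**Figure D5:**
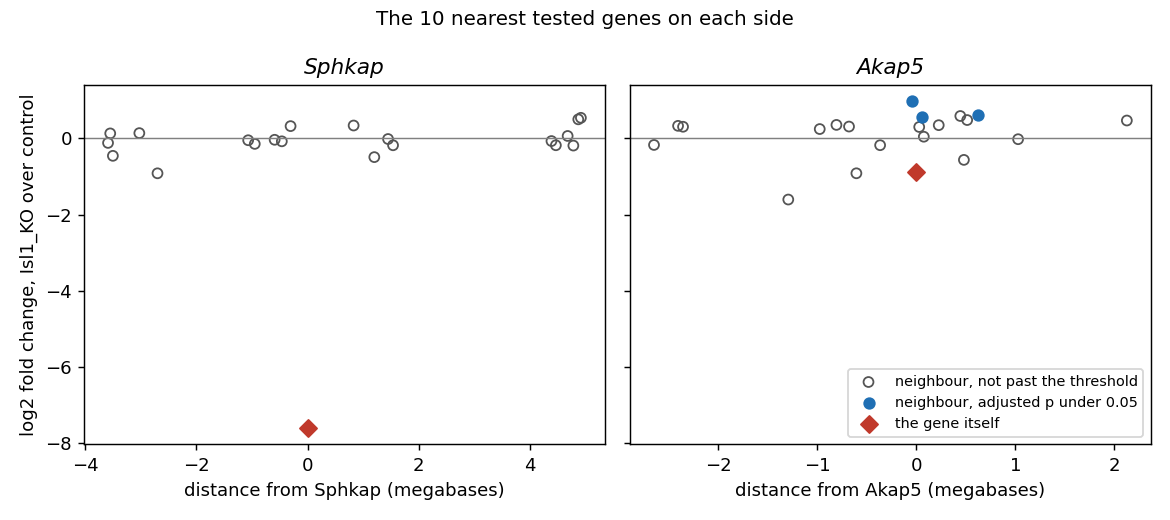
Log2 fold change of Isl1_KO over control for the 10 nearest tested genes on each side of Sphkap and of Akap5, against distance from the gene in megabases, with the gene itself as a diamond and neighbours past the adjusted threshold filled. Sphkap lies at -7.60 among neighbours between -0.92 and 0.54, and Akap5 at -0.89 among neighbours with a median of 0.30.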

How the data were processed

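Per the labels, stranded poly(A) libraries of sorted CPCs were sequenced, and groups and replicate numbers came from the titles. The authors mapped reads to mm9 with STAR and had HOMER count reads in the exons of RefSeq transcripts, both strands together. Versions were not stated. The deposited counts are whole reads, and transcripts of 1 gene share reads. The deposited RPKM values, made by the authors with edgeR, were used only to check the counts. The deposited signal column is a mean count after size factors, and the deposited log2 fold changes, Wald score and p-value columns are the authors' own DESeq2 comparison and were not used. The number of unmatched columns was 0.

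Each of 20701 symbols was represented by its entry of highest summed count (31507 entries in all). Counts of all 4 libraries were tested with edgeR 4.0.16 in R 4.3.3 (quasi-likelihood, TMM factors, filterByExpr, no covariate, two-sided). P-values were adjusted over 12715 genes by Benjamini-Hochberg and called under 0.05. CPM used effective library sizes, and 3 counts corresponded to 0.231 to 0.341 CPM. Intervals cover counting error only, as reads carried no molecular identifiers. An exact permutation test of 2 against 2 libraries cannot give a two-sided p under 0.333. The length offset removed a lowess trend (span 0.3). Alternatives were DESeq2 1.42.0, other scaling, filters, entries, the length offset, the replicate number as a block and each library left out. The code was tested on simulated data. Positions are from GENCODE vM1 on NCBIM37, from which mm9 is made, and were found for 18781 symbols. Figures were drawn with matplotlib 3.10.9.

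The members, gene lists and tests were chosen with earlier results of these data known. Named were the 9 members, pathway genes past the threshold, the PKA subunits, Sphk1, Sphk2, Isl1 and the 5 genes nearest to Sphkap. Rhoa, Creb1, Pde10a, Akap2, Adcy5, Atp2a2, Tnni3, Nppa, Nkx2-5, Hbb-bh1, Runx1, Tal1 and Gata1 were named after their values were seen. So were Ttn, Actn2, the endothelial and fibroblast markers and the neighbouring genes.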

Additional observations from a re-analysis of the deposited data

How the results depend on the processing

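Over all genes 311 were called by edgeR, 492 without a filter on low counts, 602 by DESeq2 and 516 with the replicate block and the length offset together. Leaving out 1 library gave 27 to 6350 calls, the low counts without a control library and the high ones without an Isl1_KO library, since the lone library is then assumed to vary like the remaining pair. Of the anchoring genes 2 were called, 1 with the length offset, 1 with the replicate block and length offset, 0 with at least 10 counts in every library (8 tested, since Sphkap fell under that filter, and 7 with an unadjusted p under 0.05) and 1 to 9 with 1 library left out. DESeq2 called 3, Sphkap, Akap13 and Akap5, beside its 602 calls over all genes. The share of all genes with an unadjusted p under 0.05 was not counted. As the anchoring genes were chosen on this contrast, nothing is read from these counts. Of the pathway genes 9 were called, 5 with at least 10 counts, 14 by DESeq2 and 1 to 52 with 1 library left out. The log2 fold change of Sphkap was -7.68 to -7.51 with 1 library left out and -7.64 to -7.53 under the other alternatives that gave a value. Prkaca ran from -0.11 to 0.017 and Prkar2a from -0.23 to 0.22 with 1 library left out, and Prkar2a was -0.0028 with the replicate block. The replicate numbers did not pair the samples (correlation of same-numbered deviations 0.012 over 12715 genes). With the replicate block 454 genes, 2 anchoring genes and 11 pathway genes were called. With 2 libraries per group, differences between clones and between genotypes cannot be told apart beyond these pairs.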
